A study of Homo sapiens with 36 samples.

Results

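The aryl hydrocarbon receptor AHR and 6 genes that it is known to switch on, namely the repressors AHRR and TIPARP, the cytochromes CYP1A1, CYP1A2 and CYP1B1 and the aldehyde dehydrogenase ALDH3A1, were followed through every mRNA library. They were picked by gene symbol, and all 7 were found among the 60591 genes of the count table. The question was which of these genes moved when cells received a derivative of oxyquinoline (OD), used to stabilise hypoxia-inducible factor (HIF), and how that compared with CoCl2, a metal salt used for the same purpose.

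AHR is a transcription factor that waits in the cytosol with HSP90 and the co-chaperone p23 (PTGES3). When a flat aromatic ligand binds, AHR enters the nucleus, pairs with ARNT and binds DNA at response elements with the core GCGTG, where it drives CYP1A1 and the other classical targets. ARNT is also the partner of the HIF alpha subunits, which bind the core ACGTG. In the gut, AHR senses indoles from food and bacteria, and its target CYP1A1 clears those ligands.

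The 18 mRNA libraries came from Caco-2 and HT-29 cells, both established from human colorectal tumours, with 3 libraries in each of 6 groups. Cells of each line received OD at 5 µM for 24 h, CoCl2 at 300 µM for 24 h, or no active agent (control). Per ml of medium, the labels give 0.5 µl of the solvent DMSO for the OD and control groups and a water stock for CoCl2. The study's methods, which describe Caco-2 and not HT-29, put DMSO in every medium at 0.5%, a different amount. The amount of DMSO and the solvent of the CoCl2 groups are therefore not settled. Caco-2 cells were used after 21 days of differentiation and no such step is given for HT-29, so line and culture state cannot be told apart. The methods call the Caco-2 replicates biological, and nothing says how the HT-29 replicates were made, so p-values for HT-29 may measure technical spread. Libraries held from 12925719 to 22332639 counts. The 6 epithelial markers were present in every group, with a summed level from 4645 to 7974 CPM (counts scaled to the library total), while 4 markers of leukocytes, endothelium and fibroblasts summed to between 2.39 and 38.8 CPM and the leukocyte gene PTPRC had at most 2 counts in a library.

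The DNA around the transcript starts is shown for the genes whose response elements bear on the comparison. These windows were taken from RefSeq on GRCh38.p14, which held 8 starts for 5 of the 7 genes (AHR, AHRR, CYP1A1, CYP1A2 and TIPARP). CYP1B1 and ALDH3A1 were not matched. Capitals mark GCGTG, or CACGC where the core lies on the opposite strand, and every sequence reads 5′ to 3′ on the strand of its gene. The first is the stretch from −1000 to −701 bases of the CYP1A1 start (chr15:74726229-74726528, minus strand), shown because it holds a pair of cores in the longer form TNGCGTG. The second is the CYP1A1 promoter (chr15:74725479-74725778, minus strand), the third is the promoter of its neighbour CYP1A2 (chr15:74748595-74748894, plus strand), which has no core, and the fourth is the promoter at the first TIPARP start (chr3:156674340-156674639, plus strand).
CYP1A1 upstream stretch: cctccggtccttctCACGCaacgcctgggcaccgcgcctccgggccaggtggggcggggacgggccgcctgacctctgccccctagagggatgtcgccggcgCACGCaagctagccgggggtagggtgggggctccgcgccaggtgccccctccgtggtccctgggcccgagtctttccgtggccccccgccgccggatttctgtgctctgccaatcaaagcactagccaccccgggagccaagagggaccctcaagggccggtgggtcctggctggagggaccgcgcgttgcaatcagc
CYP1A1 promoter: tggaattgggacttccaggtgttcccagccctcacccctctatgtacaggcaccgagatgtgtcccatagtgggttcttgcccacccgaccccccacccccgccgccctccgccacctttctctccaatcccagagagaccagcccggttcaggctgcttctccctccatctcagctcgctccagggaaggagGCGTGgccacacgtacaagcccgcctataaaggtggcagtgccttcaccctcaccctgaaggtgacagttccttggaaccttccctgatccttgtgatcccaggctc
CYP1A2 promoter: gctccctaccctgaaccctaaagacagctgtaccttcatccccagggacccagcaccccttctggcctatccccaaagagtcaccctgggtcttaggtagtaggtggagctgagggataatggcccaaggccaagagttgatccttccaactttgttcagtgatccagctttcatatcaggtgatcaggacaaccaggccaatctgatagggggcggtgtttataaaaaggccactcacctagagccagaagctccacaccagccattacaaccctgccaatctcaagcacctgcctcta
TIPARP promoter: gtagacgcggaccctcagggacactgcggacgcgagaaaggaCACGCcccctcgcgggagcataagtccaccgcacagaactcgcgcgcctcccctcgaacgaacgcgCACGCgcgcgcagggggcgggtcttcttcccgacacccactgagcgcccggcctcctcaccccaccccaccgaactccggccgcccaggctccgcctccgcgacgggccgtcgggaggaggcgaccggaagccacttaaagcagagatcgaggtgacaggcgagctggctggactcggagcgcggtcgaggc

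GCGTG was searched on both strands, and every TNGCGTG match is also a GCGTG match. The core is short and common: 36.5% of 35116 RefSeq promoters of 300 bases held it, and 64.0% of the 1000-base stretches before the starts. In those 1000 bases CYP1A1 had 5 cores, of which 3 had the form TNGCGTG, and 5.22% of all starts had at least as many cores. The first TIPARP start had 6, which 2.65% of starts reached, and the 2 starts of AHRR, whose stretches overlap, had 3 and 6. CYP1A2 had 1, and AHR had none before its start and 1 after it. The hypoxia core ACGTG, found in 21.4% of promoters, was present in the CYP1A1 promoter and in that of AHR. The 2 matches in AHR, at −165 and −164 bases on opposite strands, are the same palindrome CACGTG. The antioxidant response core TGACNNNGC, found in 13.3% of promoters, had no match in the 8 windows. A match of letters is a description and not a bound site.

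**Figure D1:**
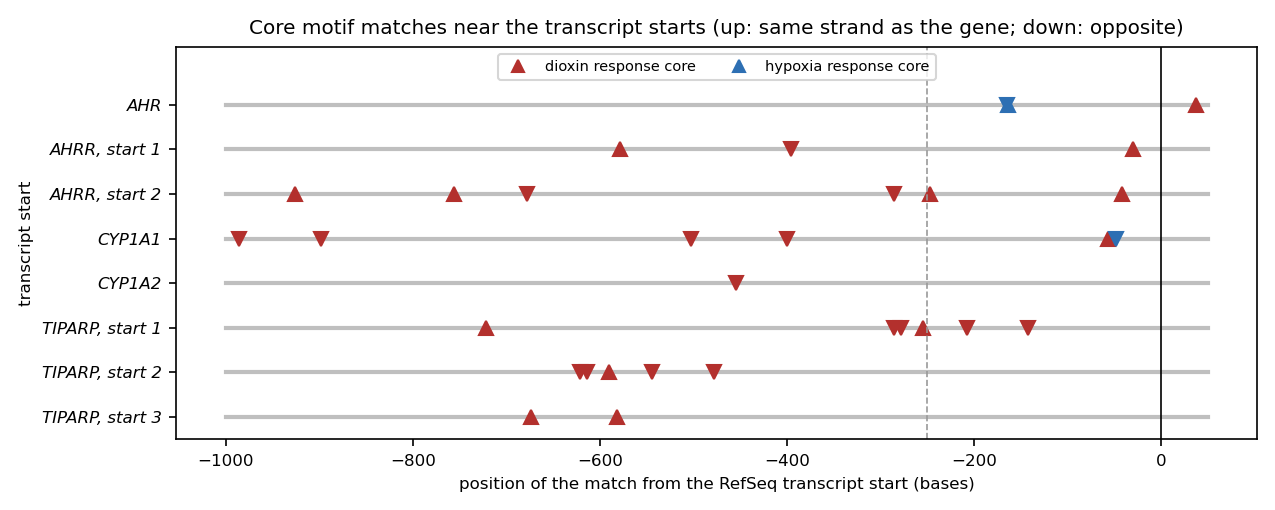
Positions of the dioxin response core (red) and the hypoxia response core (blue) from 1000 bases before to the end of the promoter window after each RefSeq start of 5 genes, in bases from the start. Each line is a transcript start, triangles pointing up lie on the strand of the gene and triangles pointing down on the opposite strand, and the dashed line marks where the promoter window begins. CYP1A1 had 5 red matches spread over the stretch, TIPARP start 1 had 6, and CYP1A2 had 1.

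The receptor itself fell in HT-29 under both agents and did not pass the test in Caco-2. AHR lies at chr7:16916359-17346152 on GRCh38. Levels are in CPM on TMM-scaled library sizes (TMM is the edgeR scaling that trims the most changed genes). The HT-29 control libraries had 44.9, 51.7 and 50.1 CPM of AHR, the OD libraries 29.0, 29.6 and 28.1, and the CoCl2 libraries 25.2, 25.0 and 25.4. All 3 control libraries stood above all treated ones, and the CoCl2 libraries stood below the OD libraries. The log2 fold change of AHR was −0.76 ± 0.06 (SE) under OD (FDR = 1.73e-11) and −0.96 ± 0.07 under CoCl2 (FDR = 2.16e-13) by edgeR, both below the fold limit of 1 used for a call. In Caco-2 the control libraries had 31.9, 27.2 and 31.8 CPM, the OD libraries 30.3, 29.3 and 24.9, and the CoCl2 libraries 25.7, 28.9 and 23.2, with overlapping ranges. The Caco-2 change was −0.10 under OD (95% interval −0.33 to 0.12, edgeR FDR = 0.438) and −0.23 under CoCl2 (−0.45 to −0.0046, FDR = 0.0683). Under CoCl2 the Caco-2 change passed an FDR of 0.05 with all 18 libraries in one fit (−0.23), with library size only (−0.55, edgeR FDR = 0.000185), and without Caco-2 control replicate 2 (−0.30) or CoCl2 replicate 2 (−0.31). In bulk RNA, fewer cells with a transcript and less of it per cell cannot be told apart.

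The repressors parted. TIPARP, a mono-ADP-ribosyltransferase that modifies AHR and shuts it off, rose in both lines under both agents, whereas AHRR, which competes with AHR for ARNT, did not rise detectably under OD and fell under CoCl2 in HT-29. TIPARP lies at chr3:156673235-156706770. In Caco-2 its control libraries had 22.6, 23.1 and 21.9 CPM, those with OD 40.8, 40.6 and 33.9, and those with CoCl2 56.7, 72.4 and 73.6. In HT-29 the same groups had 77.1, 84.5 and 87.3 CPM, then 154.7, 134.2 and 138.9 CPM, then 232.8, 257 and 246 CPM. The groups followed the order control, OD, CoCl2 in each line with no overlap between any of them. OD raised TIPARP 1.71-fold in Caco-2 (log2 0.77 ± 0.11, edgeR FDR = 1.78e-06) and 1.72-fold in HT-29 (0.78 ± 0.06, FDR = 5.31e-12). CoCl2 raised it 3.01-fold in Caco-2 (log2 1.59 ± 0.10, edgeR FDR = 2.61e-12) and 2.95-fold in HT-29 (1.56 ± 0.06, FDR = 5.3e-19), and these were past the fold limit. CoCl2 stood above OD by 0.82 in Caco-2 (edgeR FDR = 3.28e-07) and 0.78 in HT-29 (FDR = 1.51e-12) on the log2 scale.

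AHRR (chr5:321714-438291) was close to the limit of detection in Caco-2, where the 9 libraries had between 2 and 9 counts and the gene was not tested. The 3 OD libraries summed to 17 counts and the 3 control libraries to 10, a ratio of 1.73 with a counting interval of 0.749 to 4.23. In HT-29 the control libraries had 2.90, 2.73 and 2.52 CPM, the OD libraries 3.41, 2.85 and 3.19, and the CoCl2 libraries 0.896, 0.622 and 1.23. Control and OD ranges overlapped, and every CoCl2 library lay below both. AHRR changed by 0.23 on the log2 scale under OD (95% interval −0.12 to 0.59, edgeR FDR = 0.239) and fell by 1.57 under CoCl2 (SE 0.25, FDR = 1.9e-06). The readthrough gene PDCD6-AHRR covers AHRR on the same strand, and how reads shared by them were assigned is not stated.

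**Figure D2:**
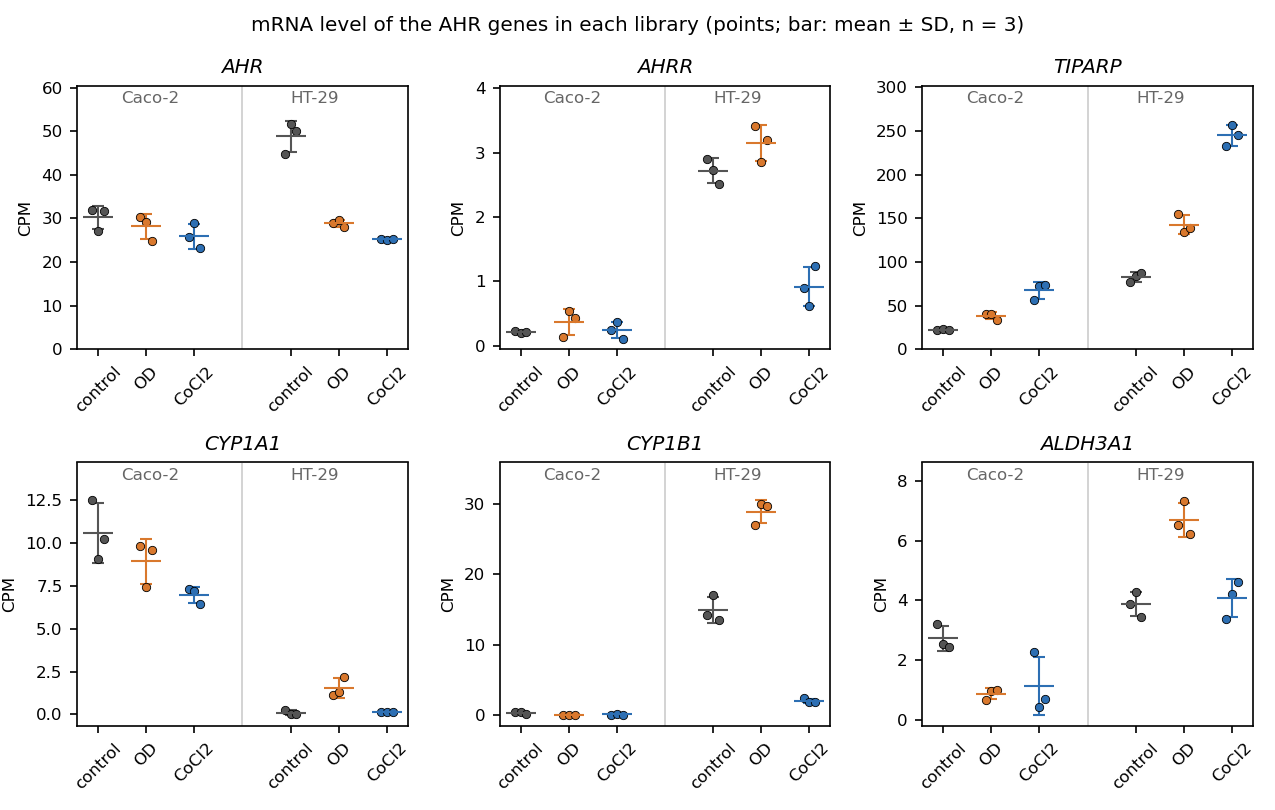
CPM of 6 of the genes in each of the 18 libraries (points), by cell line and treatment, with the group mean and SD as bars (n = 3 per group). Each panel has its own linear axis. CYP1A1 is high in Caco-2 and near 0 in HT-29 except in the OD libraries, and CYP1B1 is high in HT-29 and near 0 in Caco-2. CYP1A2, with 1 count in all, is left out.

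CYP1A1, the monooxygenase that serves as the standard readout of AHR ligands, behaved differently in the lines. It lies at chr15:74719542-74725536. The HT-29 control libraries held 4, 0 and 1 counts of it, the CoCl2 libraries 2 each, and the OD libraries 22, 22 and 41. As CPM, the OD libraries had 1.14, 1.28 and 2.18, against at most 0.258 in any other HT-29 library. All 3 OD libraries therefore lay above all others of the line. The log2 fold change under OD was 4.10 ± 0.51 (edgeR FDR = 8.48e-08), past the fold limit. CYP1A1 passed the filter on low counts in HT-29 through its OD libraries alone, so it had to differ to be tested there. With so few control counts the size is uncertain: 85 counts against 5 gave a ratio of 18.6 with a 95% counting interval of 7.65 to 58.7. Without control replicate 1, which held 4 of those 5 counts, the log2 value was 5.71, and without control replicate 2 it was 3.60. CoCl2 gave 6 counts against 5, a ratio of 1.81 with an interval of 0.461 to 7.51 (log2 0.80 ± 0.94, edgeR FDR = 0.431). CYP1A1 was lower with CoCl2 than with OD by 3.30 ± 0.52 on the log2 scale (edgeR FDR = 2.32e-06).

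In Caco-2, CYP1A1 was already present without treatment. Control libraries had 12.5, 9.06 and 10.2 CPM, the OD libraries 9.82, 7.45 and 9.60, and the CoCl2 libraries 7.33, 7.19 and 6.44. Control and OD overlapped, and the CoCl2 libraries lay below all of them. The change under OD was −0.25 ± 0.15 on the log2 scale (95% interval −0.57 to 0.06, edgeR FDR = 0.17), so a rise beyond 0.06 lay outside the interval. With library sizes left unscaled, OD gave −0.41 with an FDR of 0.0317 by edgeR. Under CoCl2 CYP1A1 fell by 0.61 ± 0.16 (edgeR FDR = 0.00154), which is below the fold limit. The mean level in Caco-2 under OD, 8.95 ± 1.31 CPM, was still above that in HT-29 under OD, 1.53 ± 0.57 CPM (SD, n = 3 each), on library sizes scaled within each line.

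CYP1A2, the hepatic sister of CYP1A1 (chr15:74748845-74756607), had 1 count in HT-29 control replicate 2 and 0 in the other 17 libraries. A count of 0 allows up to 3 counts, or from 0.113 to 0.250 CPM by library. No response of CYP1A2 was detectable at this depth.

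CYP1B1, which oxidises steroids and polycyclic hydrocarbons, moved in opposite directions under the 2 agents in HT-29. It lies at chr2:38066973-38109902. The HT-29 control libraries had 14.3, 17.0 and 13.5 CPM, the OD libraries 27.0, 29.9 and 29.7, and the CoCl2 libraries 2.39, 1.94 and 1.89. No group overlapped another. CYP1B1 rose 1.94-fold under OD (log2 0.96 ± 0.08, edgeR FDR = 1.13e-10) and fell by 2.83 ± 0.14 under CoCl2 (FDR = 4.37e-16). The rise lay just inside the fold limit of 1, and it passed without HT-29 control replicate 2 (1.06) or without OD replicate 1 (1.00). In Caco-2, CYP1B1 was not tested. Its libraries held 7, 7 and 3 counts in the control, 1 each with OD, and 1, 3 and 1 with CoCl2. The OD counts gave 0.180 times the control level with a counting interval of 0.0337 to 0.621, so the Caco-2 counts lay on the other side of their control from those of HT-29. The antisense gene CYP1B1-AS1 had 39 to 54 counts in HT-29 control, 53 to 59 with OD and 5 to 9 with CoCl2. Use of strand in the counting is not stated, so reads of CYP1B1 and its antisense partner cannot be told apart where they overlap.

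ALDH3A1, which oxidises aromatic and lipid-derived aldehydes and is a known target of both AHR and the stress factor NRF2, also split by line. It lies at chr17:19737984-19748943. In HT-29 it had 3.87, 4.27 and 3.45 CPM in control, 6.52, 7.33 and 6.23 with OD, and 3.36, 4.22 and 4.61 with CoCl2. The OD libraries lay above all others, and control and CoCl2 overlapped. ALDH3A1 rose 1.75-fold under OD (log2 0.80 ± 0.14, edgeR FDR = 1.09e-05), below the fold limit, and under CoCl2 its change was 0.08 (95% interval −0.25 to 0.41, FDR = 0.632). In Caco-2 the control libraries held 55, 38 and 35 counts, the OD libraries 10, 16 and 14, and the CoCl2 libraries 27, 6 and 13, and every treated library lay below every control library. ALDH3A1 fell by 1.64 ± 0.39 under OD (edgeR FDR = 0.0013) and by 1.35 ± 0.39 under CoCl2 (FDR = 0.00375), both past the fold limit. The CoCl2 value rested on single libraries: it was −2.21 without CoCl2 replicate 1 and −0.99, inside the fold limit, without CoCl2 replicate 2.

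**Figure D3:**
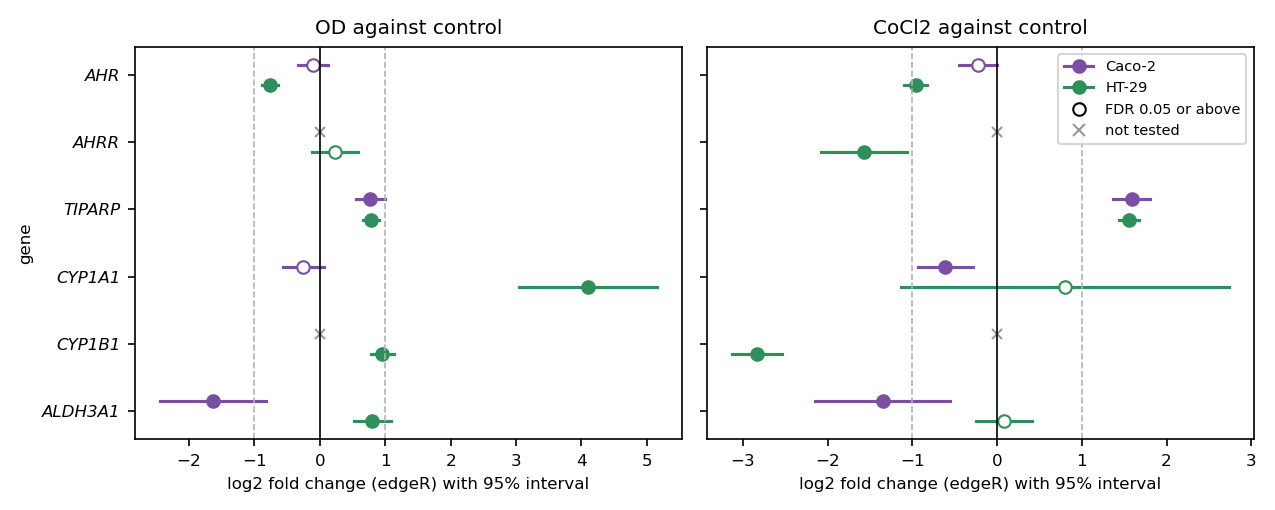
Log2 fold changes against control (points) with their 95% intervals (lines) for 6 genes, under OD on the left and CoCl2 on the right, in Caco-2 (purple) and HT-29 (green). Filled points had an FDR under 0.05, open points did not, crosses mark genes that were not tested, and dashed lines mark the fold limit of 1. TIPARP lies right of 0 in all 4 comparisons, CYP1A1 lies right of 0 with a filled point under OD in HT-29 only, and ALDH3A1 on opposite sides of 0 in the lines under OD.

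Counted over the genes, a call needed an FDR under 0.05 and an absolute log2 fold change over 1. Under OD, 1 of the 4 genes tested in Caco-2 was called (ALDH3A1, lower), where 11.7% of all 16034 genes tested were called. In HT-29, 1 of 6 was called (CYP1A1, higher) beside 17.1% of 15812 genes. CYP1A1 passed the filter on low counts there through its OD libraries alone, so every HT-29 count that includes it carries this limit. By FDR alone, 5 of 6 passed in HT-29, 4 higher and AHR lower, beside 68.8% of all genes, and 2 of 4 passed in Caco-2 beside 50.4%. Under CoCl2, 2 of 4 were called in Caco-2 beside 23.4% of all genes, and 3 of 6 in HT-29 beside 41.3%. For CoCl2 against OD in Caco-2, 0 of 4 were called by edgeR or DESeq2, and 0 of 3 tested by limma-trend, beside 11.7% of all genes by edgeR. There, 1 (TIPARP) was at an FDR under 0.05 where 49.6% of all genes were, and 2 (also CYP1A1) were at an unadjusted p under 0.05. In HT-29, CoCl2 against OD had 3 of 6 called (AHRR, CYP1A1 and CYP1B1, all lower with CoCl2) beside 29.9%. The OD and CoCl2 comparisons of a line share their control libraries.

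The difference between the lines was tested itself, as the HT-29 response less the Caco-2 response over all 18 libraries. For OD, CYP1A1 differed by 4.33 ± 0.54 on the log2 scale (edgeR FDR = 4.41e-08), CYP1B1 by 3.28 ± 0.67 (FDR = 0.000146) and ALDH3A1 by 2.42 ± 0.38 (FDR = 2.45e-06), each more positive in HT-29. These are 3 of the 6 genes tested, where 15.2% of 17921 genes were called. The CYP1B1 value leans on the 17 and 3 counts of Caco-2. AHR differed by −0.67 ± 0.12 (edgeR FDR = 3.4e-05). TIPARP differed by −0.01, with a 95% interval of −0.26 to 0.24 (edgeR FDR = 0.979), and AHRR by −0.56 (−1.79 to 0.67, FDR = 0.492). For CoCl2, ALDH3A1 differed by 1.35 ± 0.39 (edgeR FDR = 0.00398) and AHRR by −1.75 ± 0.73 (FDR = 0.0458), which is 2 of 6 called beside 21.6% of all genes, and AHR differed by −0.84 ± 0.13 (FDR = 1.41e-06). The AHRR call was lost by DESeq2, with RLE size factors, without the filter on low counts and with the replicate block, and when any of 9 libraries was left out, with an FDR of up to 0.243 by edgeR, without Caco-2 CoCl2 replicate 2.

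The order of levels over the groups showed which line carried which gene, on library sizes scaled within each line. CYP1A1 was highest in Caco-2 control (10.6 ± 1.76 CPM, SD, n = 3) and overlapped Caco-2 OD, followed by Caco-2 CoCl2, HT-29 OD, and then HT-29 CoCl2 and control, which overlapped each other. For CYP1B1 the 3 HT-29 groups came first, from 28.9 ± 1.62 CPM with OD to 2.07 ± 0.28 with CoCl2, and the 3 Caco-2 groups, none above 0.362 CPM on average, overlapped their neighbours. TIPARP was the only one of the 7 with no overlap between any neighbours, from 245 ± 12.3 CPM in HT-29 CoCl2 to 22.5 ± 0.60 in Caco-2 control. AHR was highest in HT-29 control (48.9 ± 3.57 CPM), and its other 5 groups formed a chain of overlapping ranges from 30.3 to 25.2 CPM. Between genes, levels can be set side by side only per length, as in the deposited log2(RPKM + 1) values. On that scale HT-29 control had a level of 4.23 for TIPARP, 2.86 for AHR, 1.83 for CYP1B1 and 1.02 for ALDH3A1, and Caco-2 control had 2.53 for TIPARP, 2.27 for AHR and 2.07 for CYP1A1. CYP1A1 in HT-29, and CYP1B1 and ALDH3A1 in Caco-2, are listed at 0 there, and AHRR and CYP1A2 are not listed.

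The partners of the receptor moved little under OD. Of 9 genes of the receptor complex, 8 were tested (ARNT2 was not), and 0 were called under OD in either line by edgeR, by DESeq2 or by limma-trend. At an unadjusted p under 0.05, 2 passed by edgeR in Caco-2, both higher, and 6 in HT-29, 2 higher and 4 lower. The same numbers passed an FDR under 0.05, as did 50.4% of all genes in Caco-2 and 68.8% in HT-29. Their median log2 change was 0.12 in Caco-2 and −0.14 in HT-29, beside −0.02 and 0.01 for all genes. ARNT changed by 0.03 in Caco-2 (edgeR FDR = 0.744) and 0.10 in HT-29 (FDR = 0.102). Under CoCl2 the chaperones HSP90AA1 and HSP90AB1 were called in both lines, by log2 1.22 and 1.33 in Caco-2, or 1.61 and 2.03 in HT-29, and PTGES3 was called in HT-29 (1.29).

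Other genes reported as AHR targets gave another picture, with 9 called under OD in Caco-2 and 1 in HT-29. Of 16 such genes, 14 were tested in Caco-2, and under OD 6 were called higher and 3 lower, where 4.43% and 7.27% of all genes were, with a median of 0.78 beside −0.02. Those called higher were the bilirubin transferase UGT1A1 (2.06), the secreted glycoprotein STC2 (1.82), the efflux pump ABCG2 (1.58), the adaptor NEDD9 (1.31), the cytochrome CYP2S1 (1.24) and the actin-severing SCIN (1.09, edgeR FDR = 0.0482). DESeq2 called 5 higher and 3 lower. By limma-trend 3 were called higher and 2 lower, on a table in which UGT1A1 and SCIN are listed at 0 in Caco-2. UGT1A1 had 1 to 5 counts in Caco-2 control and 12 or 13 with OD. It passed the filter on low counts there through its treated libraries alone, so it had to differ from control to be tested. The Caco-2 counts that include UGT1A1 carry this limit. Those called lower were the glutathione transferase GSTA1 (−1.33), the transcription factor FOXQ1 (−1.33) and the xanthine oxidoreductase XDH (−1.14). In HT-29, 13 were tested, and under OD 0 were called higher and 1 lower (FOXQ1, −1.28), where 9.5% and 7.57% of all genes were, with a median of −0.10 beside 0.01. NQO1, a quinone reductase shared by AHR and NRF2, rose by 0.67 ± 0.05 in HT-29 (edgeR FDR = 9.46e-13) and changed by 0.00 in Caco-2 (SE 0.08, FDR = 0.969). Tested directly, the OD response was lower in HT-29 than in Caco-2 for NEDD9 (−1.90), SCIN (−1.91), UGT1A1 (−1.68), CYP2S1 (−1.37), ABCG2 (−1.01) and NFE2L2 (−1.502), and higher for XDH (1.91), which is 7 of 15 tested beside 15.2% of all genes. NFE2L2, which encodes NRF2, rose by 0.97 in Caco-2 and fell by 0.51 in HT-29 under OD. Under CoCl2, 6 were called higher and 1 lower in Caco-2 beside 9.13% and 14.2% of all genes, and 3 higher and 5 lower in HT-29 beside 17.4% and 23.9%. The genes called higher under OD in Caco-2 changed there under CoCl2 by 3.03 (UGT1A1), 1.85 (STC2), 1.67 (CYP2S1), 0.95 (NEDD9), 0.86 (ABCG2) and −0.29 (SCIN, edgeR FDR = 0.644). Those called lower under OD changed by −1.47 (FOXQ1), −0.88 (GSTA1) and −0.83 (XDH) under CoCl2.

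Enzymes that break down tryptophan, of which only some make AHR ligands, were tested for 3 of 7 genes in Caco-2 and 4 of 7 in HT-29. IL4I1, an amino acid oxidase whose indole products bind AHR, rose by 4.60 ± 0.21 on the log2 scale in HT-29 under OD (edgeR FDR = 1.47e-16), from 5 to 9 counts in control to 133 to 162 counts. Under CoCl2 it had 21 to 32 counts there, and in Caco-2 it had at most 12 counts in any library. IL4I1 passed the filter on low counts in HT-29 through its treated libraries alone, so it had to differ from control to be tested. TDO2, which opens the tryptophan ring, fell under OD by 4.03 ± 0.52 in Caco-2 (edgeR FDR = 6.13e-07) and by 1.36 ± 0.42 in HT-29 (FDR = 0.00543). In Caco-2, TDO2 had 31 to 52 counts in control, 0 to 4 with OD and 3 to 12 with CoCl2. It passed the filter on low counts there through its control libraries alone, so it had to differ to be tested. KYNU, a hydrolase further down that path, fell by 1.07 ± 0.17 in Caco-2 (edgeR FDR = 8.7e-06). Under OD the list thus had 0 called higher and 2 lower in Caco-2, where 4.43% and 7.27% of all genes were, and 1 higher and 1 lower in HT-29, beside 9.5% and 7.57%. Its medians were −1.07 and −0.20, beside −0.02 and 0.01 for all genes.

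Cytochromes outside the AHR path gave a comparison, together with their reductase POR, drug-sensing receptors and the efflux pump ABCB1. The HT-29 median under OD given below is the value of ABCB1. Of 13 such genes, 11 were tested in Caco-2, and under OD 0 were called higher and 3 lower, among them CYP2C19 (−1.49) and CYP3A5 (−1.25), beside 4.43% and 7.27% of all genes, with a median of −0.44 beside −0.02. In HT-29, 9 were tested and 2 were called higher, the vitamin D hydroxylase CYP24A1 (1.31) and the pregnane X receptor NR1I2 (1.40), beside 9.5% of all genes, with a median of 0.68 beside 0.01. CYP3A5 rose there by 0.93 ± 0.06 (edgeR FDR = 8.27e-14), and its response differed between the lines by 2.16 (FDR = 3.57e-16). Under CoCl2 the same list had 0 called higher and 3 lower in Caco-2, beside 9.13% and 14.2% of all genes, and 2 higher and 2 lower in HT-29, beside 17.4% and 23.9%.

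The lists of HIF and NRF2 targets also changed, and their part in the results above was not tested. Of 8 HIF targets, 7 were tested in Caco-2 and 5 were called higher under OD (median 2.46), led by ANKRD37 at 3.61, against 3 of 8 in HT-29 (median 0.66), where 4.43% and 9.5% of all genes were called higher. NDRG1, a stress protein induced by low oxygen, rose in both lines, by 2.46 and 2.82. Of 8 NRF2 targets, which protect against oxidants, 1 of 7 tested was called higher in Caco-2 (OSGIN1, 1.22, list median 0.59) and 7 of 8 in HT-29 (median 1.68), among them OSGIN1 (3.32), GCLC (2.34) and HMOX1 (1.36). The remaining NRF2 target, SLC7A11, went the other way in HT-29, where it fell by 0.86 (edgeR FDR = 3.57e-13). In Caco-2 SLC7A11 rose by 0.81 (edgeR FDR = 1.86e-05). The summed NRF2 level ran from 930.9 to 1111 CPM in HT-29 control and from 2360 to 2672 CPM with OD, and the summed HIF level from 658.8 to 708 CPM in Caco-2 control and from 3268 to 3434 CPM with OD. Under CoCl2 all 7 HIF and all 7 NRF2 targets tested were called higher in Caco-2, and 8 of 8 and 7 of 8 in HT-29, where 9.13% and 17.4% of all genes were. SRXN1, an NRF2 target called under both agents in HT-29, had 0 to 2 counts in control there. It had 7 to 9 with OD and 14 to 25 with CoCl2. SRXN1 passed the filter on low counts through its CoCl2 libraries alone, so it had to differ to be tested. The HT-29 counts and medians of NRF2 targets carry this limit. The 4 markers of other cell types summed to between 2.67 and 3.74 CPM in HT-29 control and between 6.16 and 7.13 CPM with OD, through COL1A1 (log2 2.01), with PTPRC and COL3A1 at 0 in all OD libraries. The brush border gene VIL1 fell by 1.15 in HT-29 under OD. It was the 1 of 6 epithelial markers called there, and in Caco-2 under OD 0 of 6 were called by edgeR, DESeq2 or limma-trend, with 4 at an unadjusted p under 0.05.

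**Figure D4:**
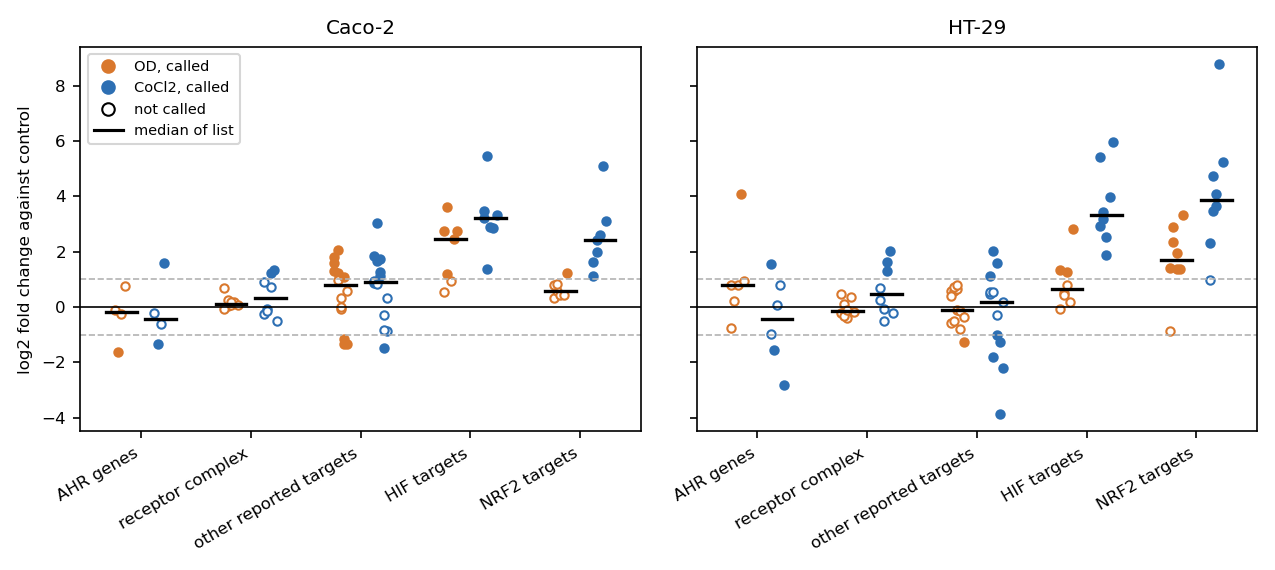
Log2 fold changes against control of each tested gene (points) in 5 lists, under OD (orange) and CoCl2 (blue), in Caco-2 on the left and HT-29 on the right. Filled points were called, black bars are list medians and dashed lines mark the fold limit of 1. Under OD the median of the HIF targets is higher in Caco-2 (2.46) than in HT-29 (0.66). The median of the NRF2 targets is higher in HT-29 (1.68) than in Caco-2 (0.59), although SLC7A11 fell in HT-29.

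The genes whose pattern over the 18 libraries was most like that of each member were named by Pearson's r of log2 CPM less the control mean of the own line, among 11519 or 11520 genes. The libraries share their treatments, so high values are common and no p is given. AHR was most like the tRNA methyltransferase subunit TRMT6 (r = 0.98), SERBP1 (0.97) and SPDL1 (0.97). TIPARP was most like the kinase subunit CSNK2A1 (0.99), IFRD1 (0.99) and the NF-kB subunit RELA (0.98). CYP1A1 was most like CDHR2 (0.96), BMF (0.95) and SLC9A2 (0.95). CYP1B1 was most like AC068888.1 (0.98) and CYFIP2 (0.97), and ALDH3A1 was most like DUSP23 (0.94), B3GAT3 (0.92) and LAMTOR1 (0.92). By rank correlation, 2 of the 15 genes chosen in this way stayed among the closest 3.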

How the data were processed

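The authors deposited raw counts per gene and a table of log2 values for mRNA. Per the methods and labels, stranded libraries gave single-end reads that were trimmed with cutadapt 2.10 and aligned with STAR 2.7.5b to GRCh38.p13. The counting tool and its use of strand are not given in the sources used here. The deposited log2 table was checked to be log2(RPKM + 1), TMM-scaled within each line, with genes that failed the authors' filter in a line at 0. Here each line's 9 libraries were fitted with edgeR 4.0.16 (R 4.3.3, limma 3.58.1, DESeq2 1.42.0 as alternatives) by the two-sided quasi-likelihood F test, with TMM, filterByExpr and Benjamini-Hochberg adjustment over all genes tested (FDR). Line differences were interactions over 18 libraries. Intervals for counts and the floor of 3 counts cover counting error only, since reads carried no molecular identifiers. Lists came from general knowledge. Members and lists were chosen with earlier results of these data known. The text names all 7 members, list genes called under OD in either line, receptor partners and, per member with a mean count of at least 50, the 3 genes with the highest Pearson r. NQO1, NFE2L2, SLC7A11, POR, ABCB1, PTPRC, COL3A1 and genes overlapping a member were named after their values were seen. Coordinates are those of GENCODE release 44. The miRNA tables were not used here, and a few genes that meet the naming rule are not reported here.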

Additional observations from a re-analysis of the deposited data

Results flagged for a closer look

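Responses that differed between HT-29 and Caco-2 by the interaction test over all 18 libraries (edgeR, FDR under 0.05) are listed here, as the HT-29 response less the Caco-2 response on the log2 scale. Under OD these were CYP1A1 (4.33, FDR = 4.41e-08), CYP1B1 (3.28, FDR = 0.000146), ALDH3A1 (2.42, FDR = 2.45e-06) and AHR (−0.67, FDR = 3.4e-05). Under CoCl2 these were ALDH3A1 (1.35, FDR = 0.00398), AHRR (−1.75, FDR = 0.0458) and AHR (−0.84, FDR = 1.41e-06). For ALDH3A1 and CYP1B1 under OD, all 3 OD libraries lay above the control range in HT-29 and all 3 below it in Caco-2, where CYP1B1 had 1 count in each OD library. The AHRR difference was no longer called by DESeq2, with RLE size factors, without the filter on low counts, with the replicate block, or without any of 9 libraries. Cell line and culture state cannot be told apart in any of these.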

How the results depend on the processing

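Counts of the members called held within 1.5 times in most alternatives. Under OD, the 1 gene called became 0 in each line by limma-trend on the authors' log2 table, also with a pseudocount of 0.1, tables in which CYP1A1 (HT-29) and ALDH3A1 (Caco-2) are listed at 0 and could not be tested. It became 2 in Caco-2 with all 18 libraries in one fit. By FDR alone the counts were 2 and 5 for OD in Caco-2 and HT-29, and 1 and 6 for CoCl2 against OD, beside 50.4%, 68.8%, 49.6% and 77.7% of all genes. By limma-trend, with either pseudocount, the count was 1 for CoCl2 in Caco-2 and 1 for CoCl2 against OD in HT-29. For the line difference in the CoCl2 response, 1 in place of 2 was called by DESeq2, by RLE size factors, without a filter and with the replicate block, since AHRR was lost. Leaving out 1 library gave 1 to 1 (OD, Caco-2), 1 to 2 (CoCl2, Caco-2), 0 to 0 (CoCl2 against OD, Caco-2), 1 to 2 (OD, HT-29), 3 to 4 (CoCl2, HT-29), 3 to 3 (CoCl2 against OD, HT-29), 3 to 3 (line difference, OD) and 1 to 2 (line difference, CoCl2). The 15 most alike genes became 2 by Spearman's rho.

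Replicate numbers did not pair the libraries: correlations of deviations between libraries of the same number ran from −0.184 to 0.189 in Caco-2 and from −0.0899 to 0.0589 in HT-29. The replicate block changed no other count of members called.

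Over single genes, 607 values kept their direction and side of the threshold, 10 passed it, 15 no longer did and 16 changed sign. The sign changes were all of uncalled values. ALDH3A1 under CoCl2 in HT-29 became −0.55 with library size only (edgeR FDR = 0.00288), −0.0116 and −0.0237 by limma-trend with a pseudocount of 1 and 0.1, −0.028 in the joint fit, and −0.0132 to 0.211 without 1 library. Its value for CoCl2 against OD in Caco-2 ran from −0.58 to 0.64 without 1 library. TIPARP's line difference under OD became 0.008 by DESeq2, 0.0072 by RLE and 0.0251 with library size only, and ran from −0.0968 to 0.0329 without 1 library. With library size only, the median of all genes shifted by −0.63 under CoCl2 and −0.14 under OD in HT-29, and by −0.32 and −0.15 in Caco-2, TIPARP under CoCl2 in HT-29 was 0.93, inside the fold limit, and 18 of 42 group levels moved by over 1 SD. For all genes, limma-trend called 381 (OD, Caco-2), 1098 (CoCl2, Caco-2), 341 (CoCl2 against OD, Caco-2), 744 (OD, HT-29), 2520 (CoCl2, HT-29) and 1455 (CoCl2 against OD, HT-29), and with a pseudocount of 0.1 it called 878, 2116, 848, 1295, 3893 and 2599, against 1876, 3747, 1868, 2699, 6524 and 4734 by edgeR. Depth limits CYP1A1 in HT-29 control (5 counts), and AHRR, CYP1A2 and CYP1B1 in Caco-2.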
